A study of Mus musculus with 12 samples.

Results

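The 10 genes described here are the muscle atrophy ubiquitin ligases Fbxo32, Trim63, Trim54, Trim55, Fbxo30 and Fbxo40 and the transcription factors Foxo1, Foxo3, Foxo4 and Klf15. They were chosen by gene symbol, through the GENCODE M21 annotation of GRCm38, from the 26921 genes of a mouse RNA-seq count table, and all 10 had a row there. RNA was taken from the left ventricle at 16 weeks of age, from 6 WT and 6 cmGch1 KO mice, to ask how loss of Gch1 in cardiomyocytes affects gene expression. Both groups carried Gch1 flox/flox. The cmGch1 KO mice also carried 1 copy of a Cre recombinase driven by the α-myosin heavy chain promoter, so the presence of Cre and the loss of Gch1 cannot be told apart in these 12 libraries. Gch1 encodes the first enzyme of tetrahydrobiopterin synthesis. Tissue RNA also holds transcripts of cells other than cardiomyocytes, and fewer cells of a type cannot be told apart from less RNA per cell.

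Striated muscle loses protein largely through ubiquitin ligases, which tag proteins for breakdown by the proteasome. Fbxo32 (atrogin-1) and Trim63 (MuRF1) are the best known of these, and their transcription is driven by FoxO factors, which Akt keeps out of the nucleus when insulin signalling is high. Glucocorticoids act on the same genes through their receptor, and the glucocorticoid-induced factor Klf15 adds to this control. In the heart, Fbxo32 and the MuRF proteins are expressed at rest and maintain the sarcomere.

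Promoter sequence was available in RefSeq (GRCm38.p6) for 7 members, with 250 bases before and 50 bases after each annotated start and 1 further start for Fbxo40. Both strands were searched for the FoxO motifs GTAAACA and GTAAATA and for TGTTCT, which is only part of a glucocorticoid receptor site. The search also covered the E-box CACGTG, which clock factors bind, and the KLF motif CCACCC. The promoter of Trim63 is shown because it was the only member window with GTAAACA, which 3.65% of 32851 windows held. That of Klf15 is shown because Klf15 had the largest genotype difference of the members and held CACGTG at 3 places, a motif in 7.15% of all windows. Both genes lie on the plus strand, and capitals mark the matches.
Trim63, chr4:134314870-134315169: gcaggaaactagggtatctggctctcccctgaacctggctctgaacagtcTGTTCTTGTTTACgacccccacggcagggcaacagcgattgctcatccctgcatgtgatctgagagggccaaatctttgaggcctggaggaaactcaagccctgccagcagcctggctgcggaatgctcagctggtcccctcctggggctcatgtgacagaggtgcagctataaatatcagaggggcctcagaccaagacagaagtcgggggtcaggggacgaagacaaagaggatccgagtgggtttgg
Klf15, chr6:90462326-90462625: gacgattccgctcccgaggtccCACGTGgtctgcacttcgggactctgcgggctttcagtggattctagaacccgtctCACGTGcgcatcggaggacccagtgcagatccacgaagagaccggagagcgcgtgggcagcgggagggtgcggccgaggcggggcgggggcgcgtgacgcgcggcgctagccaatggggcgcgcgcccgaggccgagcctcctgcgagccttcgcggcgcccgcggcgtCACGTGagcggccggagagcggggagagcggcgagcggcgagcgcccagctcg
In Trim63, TGTTCT started 200 bases upstream of the annotated start and was followed without a gap by GTAAACA on the opposite strand, 194 bases upstream. In Klf15, the E-boxes started 228, 172 and 3 bases upstream. TGTTCT was also found in Trim54 and Fbxo40 and in 19.0% of all windows, and CCACCC in Trim54, at 3 places, in Fbxo40 and in 31.5% of all windows. GTAAATA was in no member window and in 3.04% of all windows. Such a match describes the letters in the window, not a bound site.

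Library depth lay between 22356463 and 37917806 counts in WT and between 19921398 and 35480715 in cmGch1 KO. Expression is given in cpm, the counts set to a common library size and scaled by TMM factors, and a fold change is cmGch1 KO over WT on the log2 scale with its standard error (SE). Mean Gch1 was 10.7 ± 0.979 cpm in WT hearts against 5.51 ± 0.859 cpm with the deletion (means ± SD, n = 6 each), at a log2 fold change of -0.96 (SE 0.11, adjusted p = 6.88e-04 by edgeR's quasi-likelihood test) and no overlap between the groups. Replicates 2 and 3 of cmGch1 KO stood apart, with Xist at 87.1 and 99.6 cpm and 0 counts for Ddx3y, Eif2s3y, Kdm5d and Uty, all on the Y chromosome, whereas the other 10 libraries had Xist at no more than 0.235 cpm. At their depth, 0 counts leave room for levels of up to 0.151 and 0.138 cpm, from counting error alone. Mitochondrial genes held 14.9% and 16.1% of the counts in these replicates and between 18.3% and 22.9% in the other 10 libraries. In the other 10 libraries, Ddx3y, Eif2s3y, Kdm5d and Uty summed to between 168 and 193 cpm. The labels give no sex. By Xist and these genes, replicates 2 and 3 read as female and the other 10 libraries, including all WT, as male. The paper states that both sexes were used and that mice were matched by sex. Sex was thus not balanced between the groups here. The genotype difference, family share and named correlations between members are therefore given with and without replicates 2 and 3 of cmGch1 KO.

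None of the 10 members passed an FDR of 0.05. Of 11225 genes tested with edgeR, 50 (0.445%) were called lower and 76 (0.677%) higher in cmGch1 KO hearts, 1.12% in all, and the adjusted p-values of the members lay between 0.233 and 0.999. An unadjusted p under 0.05 was reached by 3 of 10 members (30%), Trim63, Foxo4 and Klf15, all lower, against 4.51% of all tested genes. No member was higher at that level, against 7.01% of all tested genes. A DESeq2 Wald test also called 0 members and had the same 3 at an unadjusted p under 0.05. By direction alone 9 of 10 members were lower and 1 higher, against 53.3% and 46.7% of all tested genes, with a median log2 fold change of -0.18 against -0.01. The ranges of the groups overlapped for every member, where 0.802% of all tested genes were lower and 1.07% higher without overlap. Without the replicates 2 and 3 of cmGch1 KO, 6 of 10 members were lower and 0 had an unadjusted p under 0.05, a level at which 2.79% of all genes tested in that fit were lower.

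**Figure D1:**
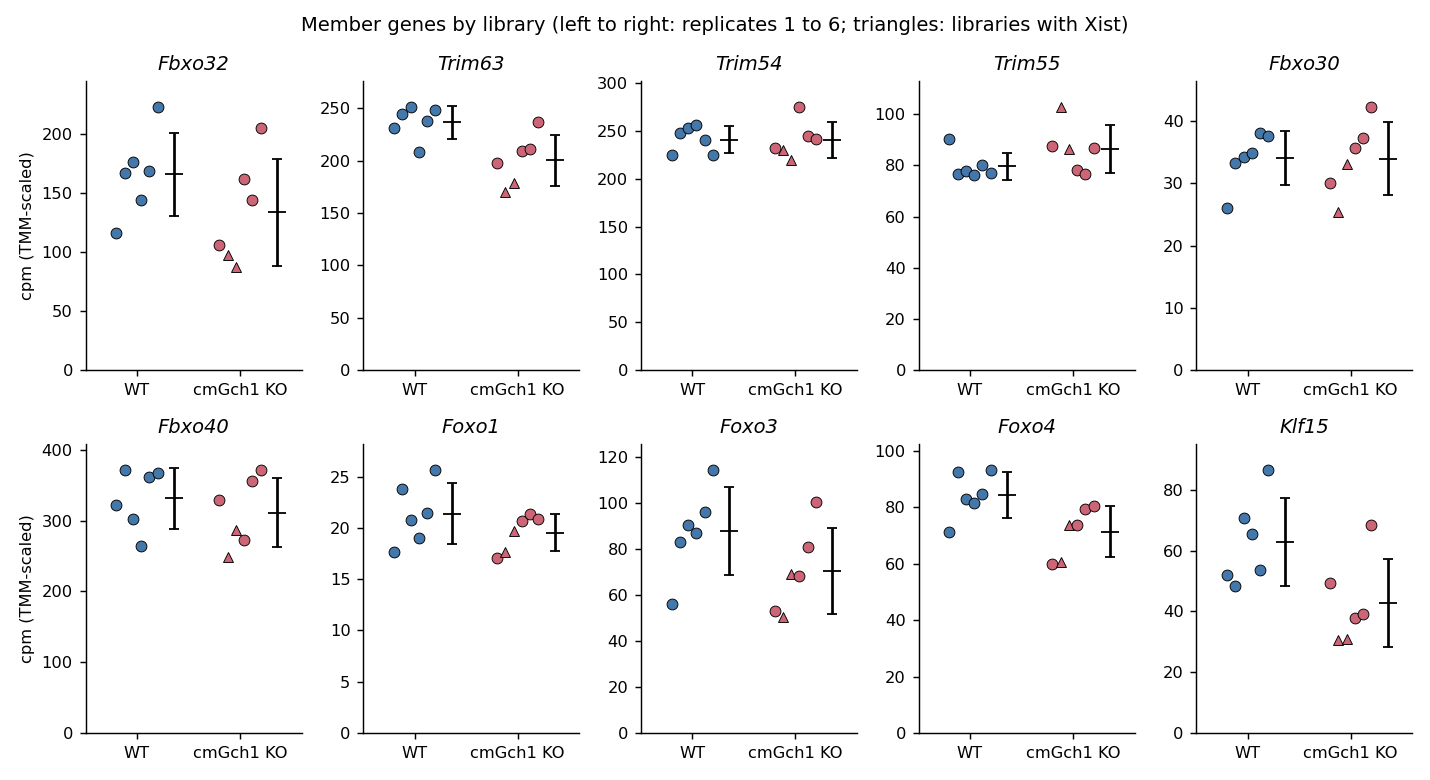
Expression of the 10 members in each library, in TMM-scaled cpm with each axis from 0; points run from replicate 1 to 6 in WT (blue) and cmGch1 KO (red), bars are means ± SD, and triangles are the cmGch1 KO libraries with Xist. Klf15 lay below the lowest WT library in 4 of 6 cmGch1 KO libraries, and in no panel are the groups separate.

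Fbxo32 encodes the F-box protein that brings substrates to an SCF ubiquitin ligase. In WT hearts its lowest, median and highest levels were 116, 168 and 222 cpm, and in cmGch1 KO hearts 87.1, 125 and 205 cpm. Most of the WT range was thus covered by the cmGch1 KO range, and 3 cmGch1 KO libraries lay below the lowest WT library. The log2 fold change was -0.31 (SE 0.20, adjusted p = 0.641 by edgeR; exact permutation test over 924 splits, two-sided, p = 0.208). The 95% interval ran from 59.8% to 109% of the WT level. The cmGch1 KO mean of 134 ± 45.2 cpm (n = 6) was 154 ± 41.2 cpm in the 4 libraries without Xist, against 166 ± 35.4 cpm in WT. The cmGch1 KO libraries with Xist held 2 of the 3 values below WT, and the log2 fold change was -0.10 without them and -0.48 without replicate 6 of cmGch1 KO.

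Trim63 encodes MuRF1, a RING ligase of the sarcomere whose substrates include thick filament proteins. It ran from 208 to 251 cpm in WT, with a median of 241 cpm, and from 170 to 237 cpm in cmGch1 KO hearts, with a median of 204 cpm. All 6 cmGch1 KO libraries lay below the WT median and 3 below the lowest WT library. Its log2 fold change of -0.24 (SE 0.08) had the smallest unadjusted p of the members, 0.0118, which gave an adjusted p of 0.233 by edgeR over all tested genes. The exact permutation p was 0.0195, or 0.284 when adjusted over all tested genes. Without replicates 2 and 3 of cmGch1 KO, the mean of 214 ± 16.7 cpm (n = 4) stayed under the WT mean of 237 ± 15.7 cpm (n = 6), and the log2 fold change was -0.15.

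The related RING proteins Trim54 (MuRF3) and Trim55 (MuRF2), which bind microtubules and the sarcomere, did not share the lower mean of Trim63. Trim54 ran from 224 to 256 cpm in WT and from 220 to 275 cpm in cmGch1 KO hearts, with medians of 244 and 237 cpm. Its 95% interval, 90.5% to 110.1% of WT, was the narrowest of the 10 members, and its log2 fold change was -0.003 (adjusted p = 0.996 by edgeR), or 0.04 without replicates 2 and 3 of cmGch1 KO.

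Trim55 was the only member with a higher mean in cmGch1 KO hearts. It ran from 76.2 to 90.1 cpm in WT and from 76.4 to 103 cpm in cmGch1 KO hearts, with medians of 77.5 and 86.7 cpm. The groups overlapped over nearly the whole WT range, and the log2 fold change was 0.12 (SE 0.08, adjusted p = 0.636 by edgeR; exact permutation p = 0.175). The highest library was replicate 2 of cmGch1 KO, which also had the lowest mitochondrial share. Without replicates 2 and 3 the cmGch1 KO mean was 82.3 ± 5.69 cpm (n = 4), against 79.6 ± 5.33 cpm in WT (n = 6), and the log2 fold change was 0.05; it was 0.06 without replicate 2 alone.

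Fbxo30 (MUSA1), an F-box ligase repressed by BMP signalling in skeletal muscle, averaged 34.0 ± 4.34 cpm in WT hearts against 33.9 ± 5.87 cpm in cmGch1 KO, or -0.002 on the log2 scale (SE 0.12, adjusted p = 0.999 by edgeR). Fbxo40, which in skeletal muscle targets the insulin receptor substrate IRS1, averaged 331 ± 42.9 and 311 ± 48.9 cpm, at -0.09 (SE 0.11, adjusted p = 0.853 by edgeR). In the 10 libraries without Xist they were at 0.09 and 0.003, and Fbxo40 was at -0.04 without replicate 2 alone and -0.15 without replicate 6. Their 95% intervals, 83.5% to 119% and 79.4% to 111% of WT, include differences in either direction. Over the 6 ligases, 5 of which were lower, the median was -0.05.

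**Figure D2:**
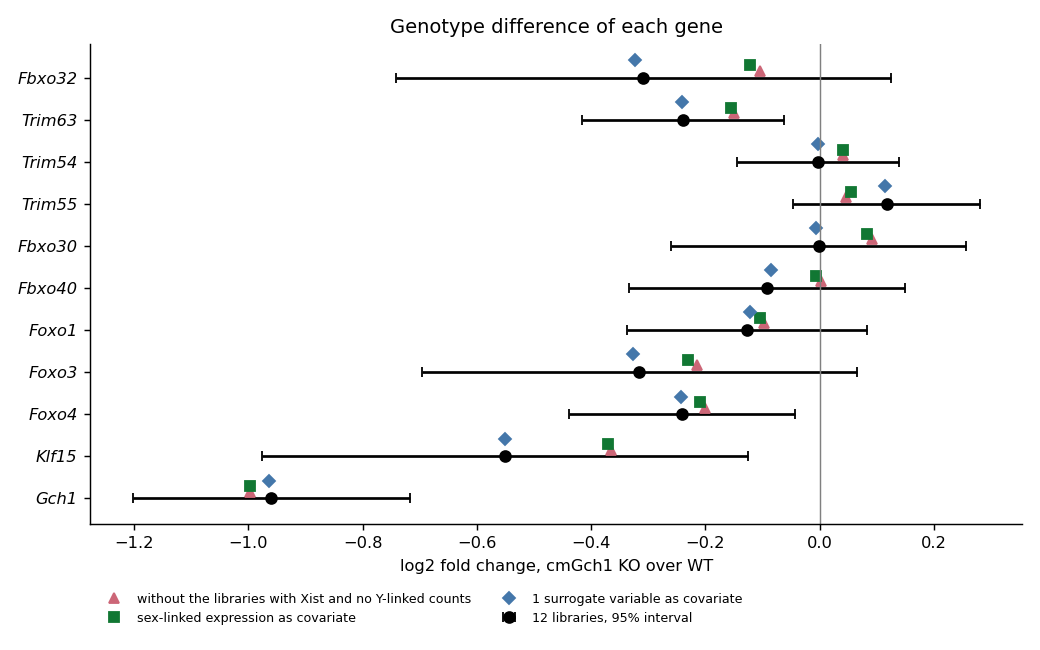
Log2 fold change of cmGch1 KO over WT for the 10 members and Gch1 in 12 libraries (black, with 95% intervals) and under 3 alternative fits: without the 2 cmGch1 KO libraries with Xist (triangles), with sex-linked expression as a covariate (squares) and with 1 surrogate variable as a covariate (diamonds). Gch1 lies at -0.96, and the members lie between -0.55 (Klf15) and 0.12 (Trim55).

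The FoxO factors all had lower means in cmGch1 KO hearts. Foxo4 ran from 71.3 to 93.3 cpm in WT, with a median of 83.8 cpm, and from 59.9 to 80.7 cpm in cmGch1 KO hearts, with a median of 73.8 cpm. All 6 cmGch1 KO libraries lay below the WT mean, and 5 of 6 WT libraries lay above the highest cmGch1 KO library; the exception was WT replicate 1. The log2 fold change was -0.24 (SE 0.09, unadjusted p = 0.0207, adjusted p = 0.298 by edgeR; exact permutation p = 0.0303). Without replicates 2 and 3 of cmGch1 KO it was -0.20, the smallest shift among the 3 members with an unadjusted p under 0.05.

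Foxo3, the factor most often tied to Fbxo32 in muscle, ran from 56.2 to 114 cpm in WT and from 50.6 to 100.5 cpm in cmGch1 KO hearts, with medians of 88.6 and 68.9 cpm. The spread within each group, with coefficients of variation of 21.7% and 26.3%, was wider than the difference between the means. Its log2 fold change was -0.32 (SE 0.18, adjusted p = 0.553 by edgeR), with a 95% interval from 61.7% to 105% of WT, and -0.21 without replicates 2 and 3 of cmGch1 KO. Foxo1 ran from 17.6 to 25.6 cpm in WT and from 17.1 to 21.3 cpm in cmGch1 KO hearts, with medians of 21.1 and 20.2 cpm. Its log2 fold change was -0.13 (SE 0.10, adjusted p = 0.714 by edgeR), -0.10 without replicates 2 and 3 of cmGch1 KO and -0.07 without replicate 6 of WT. No cmGch1 KO library reached the WT mean of Foxo1, yet only 1 lay below the lowest WT library.

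Klf15, a glucocorticoid-induced and clock-linked regulator of cardiac lipid and amino acid use, had the largest difference of the members. Its lowest, median and highest levels were 48.5, 59.5 and 86.6 cpm in WT and 30.6, 38.6 and 68.6 cpm in cmGch1 KO hearts. In cmGch1 KO hearts 4 of 6 libraries lay below every WT library, replicate 1 lay just inside the WT range and replicate 6 was above 4 of the WT libraries. The cmGch1 KO level was 68.3% of WT, with a 95% interval from 50.8% to 91.7%, a log2 fold change of -0.55 (SE 0.20, unadjusted p = 0.0147, adjusted p = 0.256 by edgeR; exact permutation p = 0.0411). Without replicate 6 of cmGch1 KO the log2 fold change was -0.74 and the adjusted p by edgeR 0.0538. Replicates 2 and 3 were the lowest, and without both of them the log2 fold change was -0.36 (adjusted p = 0.829 by edgeR).

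The call depended on the covariates. With 1 surrogate variable in the edgeR fit, 2 members passed, Trim63 (adjusted p = 0.0447) and Foxo4 (adjusted p = 0.00964), and 6 of 10 had lower means with an unadjusted p under 0.05, against 11.1% of all tested genes. With sex-linked expression as a covariate, 0 of 10 were at that level, against 2.86%. With scaling by library size alone, the median of all tested genes was 0.07 and 7 of 10 members were lower. In that fit Klf15 was lower at an unadjusted p under 0.05, as were 2.10% of all tested genes, and Trim55 was higher, at 0.20 (unadjusted p = 0.0476, adjusted p = 0.317 by edgeR). With the replicate number as a block, 5 of 10 members were lower at an unadjusted p under 0.05, Fbxo32 and Foxo3 beside Trim63, Foxo4 and Klf15, against 7.50% of all tested genes, and 0 passed the FDR.

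Levels of different genes are comparable only per exon length, and were compared as cpm per kb over the union of annotated exons. Per kb, Trim54 was highest in WT, at 168 ± 9.60 (SD, n = 6), followed by Trim63 at 83.3 ± 5.54 and Fbxo40 at 60.1 ± 7.78. The means of Trim55 (29.9 ± 2.0), Foxo4 (24.2 ± 2.32), Fbxo32 (23.7 ± 5.07) and Klf15 (22.5 ± 5.17) followed, and the last 3 lay within 1 SD of each other. Foxo3, at 11.6 ± 2.51, Fbxo30, at 6.54 ± 0.835, and Foxo1, at 2.47 ± 0.344, were lowest, with gaps wider than their SDs.

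**Figure D3:**
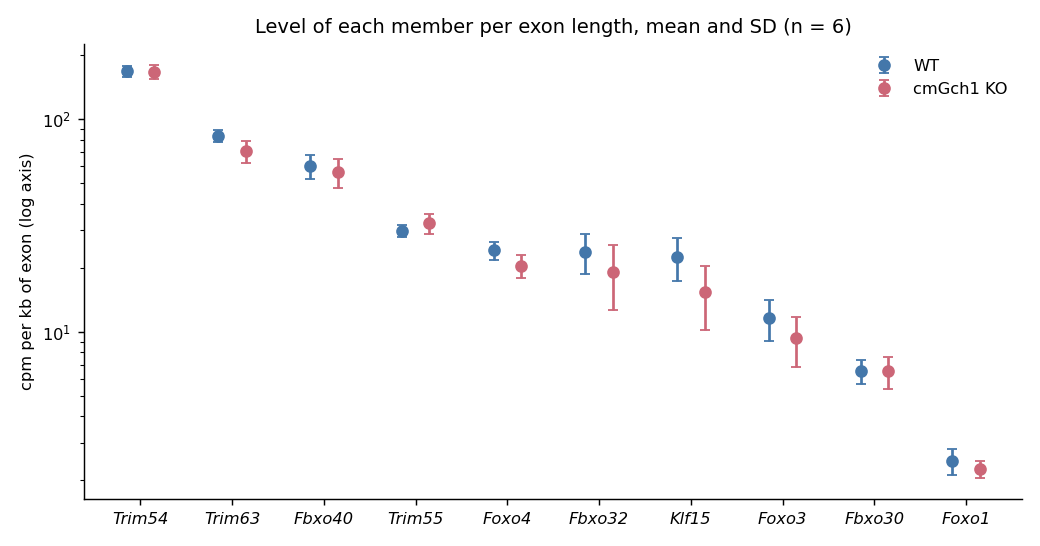
Mean level of each member in cpm per kb of exon on a log axis, with SD (n = 6), in WT (blue) and cmGch1 KO (red), ordered by the WT mean. Trim54 stands highest at 168 in WT and Foxo1 lowest at 2.47.

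Among the MuRF genes, Trim54 made up 59.7% ± 2.27 of the summed cpm per kb in WT and 61.9% ± 1.88 in cmGch1 KO hearts. Trim63 made up 29.6% ± 1.91 and 26.0% ± 2.13, and Trim55 10.7% ± 0.940 and 12.1% ± 1.80 (SD, n = 6 each). The ranges of Trim63, 26.1% to 32.0% in WT and 23.1% to 29.4% in cmGch1 KO hearts, overlapped. Among the 3 FoxO genes, Foxo4 made up 63.5% ± 3.14 in WT and 64.2% ± 2.48 in cmGch1 KO hearts, Foxo3 30.0% ± 3.33 and 28.7% ± 3.04, and Foxo1 6.45% ± 0.354 and 7.11% ± 0.572. Without replicates 2 and 3 of cmGch1 KO, the shares there were 27.0% ± 1.82 for Trim63, 61.9% ± 2.42 for Trim54 and 11.1% ± 1.07 for Trim55. For Foxo4, Foxo3 and Foxo1 they were 63.4% ± 2.71, 29.6% ± 3.30 and 6.97% ± 0.595 (SD, n = 4). These shares were described and not tested.

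From library to library, most members varied together. Of the 45 pairs of members, 35 had a positive Pearson r of log2 cpm over the 12 libraries, with a median of 0.55. An r over 0.7 was found in 13 of 45 pairs (28.9%), against 5.60% of 62994700 pairs of tested genes. By permutation, with adjustment over the 45 pairs, 22 passed 0.05, of which 17 were positive and 5 negative; 18 passed with Spearman's rho and 12 after each gene was centred within its genotype. The mitochondrial share varied between the libraries, and the members' r with that share lay between 0.50 and 0.70 except for Trim55. Libraries can also differ in tissue sampling, which was not measured. The part of either in the pairs was not tested.

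The FoxO genes were close to each other. Foxo3 and Foxo4 had an r of 0.90 (permutation p = 4e-05, adjusted p = 0.0018; rho = 0.87, p = 4.1e-04, adjusted p = 0.0063), 0.90 after centring within genotype and 0.81 without the 2 libraries farthest from the median of Foxo3. Foxo1 and Foxo4 had an r of 0.89 (permutation p = 1.6e-04, adjusted p = 0.0036; rho = 0.88, p = 2.6e-04, adjusted p = 0.0063), 0.91 after centring and 0.83 without the 2 farthest libraries. These held within WT alone, at 0.83 and 0.95, and within cmGch1 KO alone, at 0.95 and 0.97 (n = 6 each), and were 0.87 and 0.88 without the 2 libraries with Xist. The third FoxO pair, Foxo1 and Foxo3, had an r of 0.83 (permutation p = 8.7e-04, adjusted p = 0.0065; rho = 0.78, p = 0.0040, adjusted p = 0.018), 0.80 after centring, 0.70 without the 2 farthest libraries and 0.80 without those with Xist.

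Fbxo32 followed Foxo3 with an r of 0.85 (permutation p = 5.1e-04, adjusted p = 0.0057; rho = 0.86, p = 5.6e-04, adjusted p = 0.0063) and 0.82 after centring. Its 2 farthest libraries were those with Xist, and r was 0.91 without them. Fbxo32 followed Trim63 with an r of 0.85 (permutation p = 8.2e-04, adjusted p = 0.0065; rho = 0.88, p = 4.3e-04, adjusted p = 0.0063), 0.84 after centring and 0.69 without the same 2 libraries. Fbxo30, whose means differed by less than their SDs between genotypes, was as close to Foxo3, with an r of 0.86 (permutation p = 3e-04, adjusted p = 0.0045; rho = 0.83, p = 0.0014, adjusted p = 0.013), 0.95 after centring, the highest centred value of the 45 pairs, 0.77 without the 2 farthest and 0.81 without those with Xist. Trim63 and Klf15 had an r of 0.80 (permutation p = 0.0019, adjusted p = 0.012; rho = 0.74, p = 0.0079, adjusted p = 0.025). That pair had 0.65 after centring (adjusted p = 0.0992), 0.16 within WT and 0.86 within cmGch1 KO. For Trim63 the 2 farthest libraries were also those with Xist, and r was 0.58 without them.

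**Figure D4:**
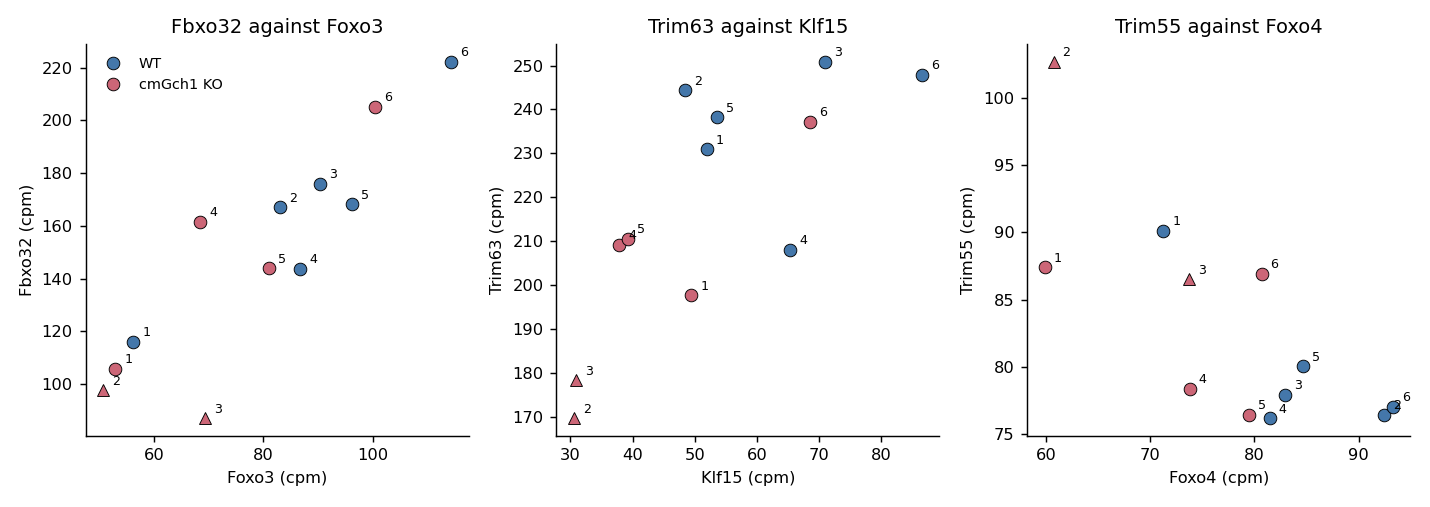
Library values in cpm of Fbxo32 against Foxo3, Trim63 against Klf15 and Trim55 against Foxo4; numbers are replicates, blue is WT, red is cmGch1 KO and triangles are the cmGch1 KO libraries with Xist. Replicate 6 of each genotype is at the upper right for Fbxo32 and Foxo3 (r = 0.85), and Trim55 is highest where Foxo4 is low (r = -0.78).

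Trim55 went the other way. Its r was negative with all 9 other members and reached -0.78 with Foxo4 (permutation p = 0.0025, adjusted p = 0.013; rho = -0.69, p = 0.016, adjusted p = 0.043), with -0.72 after centring (adjusted p = 0.058), -0.66 without the 2 farthest libraries and -0.67 without those with Xist. Trim55 also had an r of -0.84 with the mitochondrial share of the libraries, whose part in the pair was not tested. Trim54 was close to no other member, with r between -0.53 and 0.43.

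**Figure D5:**
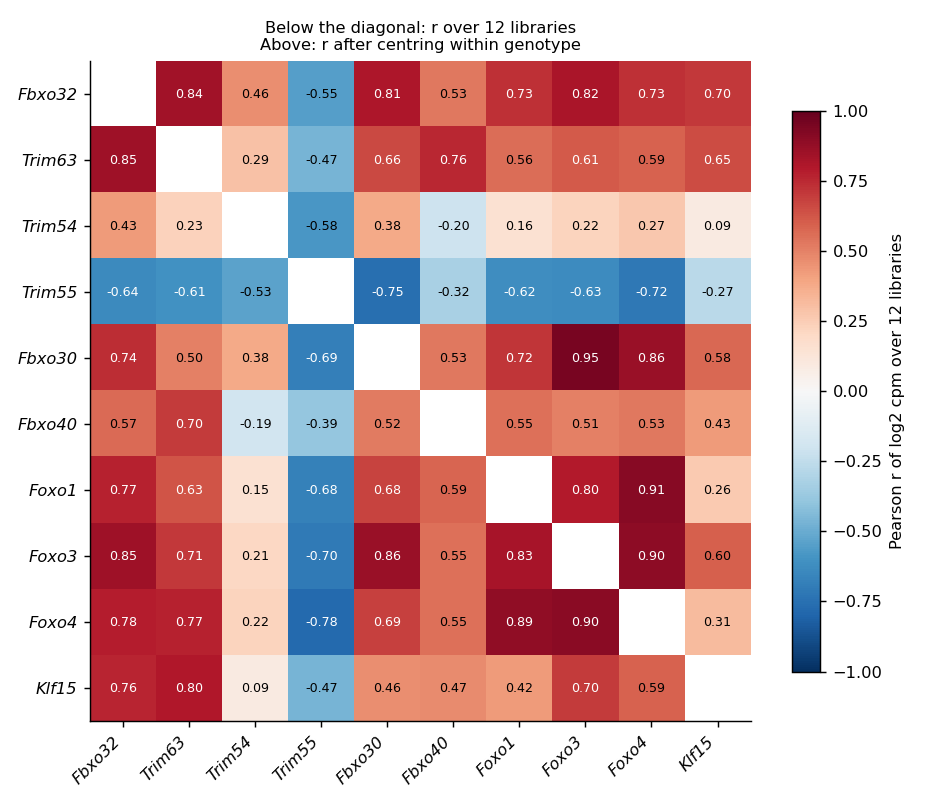
Pearson r of log2 cpm for the 45 pairs of members over 12 libraries, below the diagonal as measured and above it after centring each gene within genotype. The 3 FoxO genes, Fbxo32 and Fbxo30 form a block of positive values up to 0.90 as measured, and the row of Trim55 is negative down to -0.78.

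The same few libraries stood at the ends. Replicate 6 of WT was highest in its group for 5 members, Fbxo32, Foxo1, Foxo3, Foxo4 and Klf15, and replicate 1 of WT was lowest for 6, Fbxo32, Trim54, Fbxo30, Foxo1, Foxo3 and Foxo4. Replicate 6 of cmGch1 KO was highest for 7 members. Replicate 2 of cmGch1 KO was lowest for 5 members. Klf15, Fbxo32 and Foxo3 spanned the widest range, with the highest library at 2.83, 2.55 and 2.26 times the lowest, and Trim54 the narrowest, at 1.25 times.

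For 4 members the 3 tested genes with the highest Pearson r over the 12 libraries were listed, as a description. Epb41l3, a membrane skeleton protein, Xdh, xanthine dehydrogenase, and the splicing factor Prpf39 were nearest to Fbxo32, at 0.98, 0.95 and 0.94, and stayed at 0.93 or above after centring within genotype. Nearest to Trim63 were Lama5, a laminin chain, Crat, carnitine acetyltransferase, and Zbtb21, at 0.94, 0.92 and 0.91. Myo10, Tmcc3 and the coactivator Crebbp were nearest to Foxo1, at 0.98, 0.97 and 0.97. Klf15 was closest to 4930481A15Rik, the metalloproteinase inhibitor Timp4 and Sar1a, at 0.95, 0.94 and 0.92. None of these 12 genes passed the FDR between genotypes.

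In the lists of pathway genes, r over 0.7 with Fbxo32 was found for 8 of 11 tested KLF genes and for 9 of 23 FoxO targets outside the ligases (39.1%), among them Irs2, Bcl6, Tsc22d3 and Insr, against 8.94% of all tested genes. Of the 32 proteasome genes only Psme4, which encodes the proteasome activator PA200, was in that range. Other lists were also above 8.94% for Fbxo32: FoxO relatives (33.3%), clock genes (28.6%) and kinases and partners acting on FoxO (26.3%). So were other ligases (20.0%), glucocorticoid genes (15.4%) and autophagy genes (13.04%). Ubiquitin, E1 and E2 genes (5.88%) and the KLF15 target and myostatin lists (0% each) were below it. For Klf15, r over 0.7 was found for 6 of the 23 FoxO targets (26.1%), against 1.89% of all tested genes. It was also found for 3 of 13 genes of the glucocorticoid list, Tsc22d3, Zbtb16 and Sgk1. Of the 9 listed targets of Klf15, 0 were in that range, yet their median r with Klf15 was 0.46, against 0.03 for all tested genes. With the FoxO factors themselves, 3 of the 23 FoxO targets (13.04%) were in that range for each of Foxo1, Foxo3 and Foxo4, against 13.4%, 10.9% and 10.2% of all tested genes. In the same order, the KLF genes were at 36.4%, 45.5% and 36.4%. The kinases and partners acting on FoxO were at 47.4%, 36.8% and 31.6%, and the proteasome genes at 0%, 0% and 3.13%. Trim63 had 5 of 23 FoxO targets and 0 of 11 KLF genes in that range, against 4.26% of all tested genes. The 11 KLF genes still had a median r of 0.64 with Trim63, against -0.02 for all tested genes. The FoxO list and the glucocorticoid list share Tsc22d3 and Pdk4. The FoxO list and the KLF list share Klf4, which is in both counts for Fbxo32.

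The rest of the ubiquitin pathway differed little between genotypes. Beside the counts of lower genes in these and the following lists, 53.3% of all tested genes were lower, at a median of -0.01. Of the 25 tested SCF core and other muscle ligase genes, 15 were lower, with a median log2 fold change of -0.08, and Fbxo31 alone passed the FDR. Fbxo31, an F-box protein that targets cyclin D1, ran from 112 to 145 cpm in WT and from 87.1 to 105 cpm in cmGch1 KO hearts. The groups did not overlap, where 0.802% of all tested genes were lower without overlap. The log2 fold change was -0.38 (SE 0.08, adjusted p = 0.0257 by edgeR). This call was kept in 5 of the 12 fits that left out 1 library; without replicates 2, 3, 4 or 5 of WT or 2, 3 or 5 of cmGch1 KO the adjusted p was between 0.0501 and 0.0820 by edgeR. Without replicates 2 and 3 of cmGch1 KO together it was 0.182, at a log2 fold change of -0.33.

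Among the 17 ubiquitin, E1 and E2 genes 12 were lower and 0 passed the FDR by edgeR; the conjugating enzyme Ube2e3 had an unadjusted p under 0.05, at -0.30 (adjusted p = 0.154 by edgeR). Proteasome subunits were lower in 27 of 32, with a median of only -0.06, and 0 had an FDR or an unadjusted p under 0.05 by edgeR. Of 23 autophagy genes 14 were lower, at a median of -0.05, and 0 passed the FDR by edgeR. Wipi1, which binds the forming autophagosome, had the only unadjusted p under 0.05 among them, at -0.21 (adjusted p = 0.244 by edgeR).

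FoxO targets outside the ligases were lower in 18 of 23, with a median log2 fold change of -0.12, and 0 passed the FDR by edgeR. At an unadjusted p under 0.05 were the mitophagy kinase Pink1 (-0.20, adjusted p = 0.138), the Myc antagonist Mxi1 (-0.24, adjusted p = 0.178) and the stress protein Sesn1 (-0.34, adjusted p = 0.294), all lower, and the cell cycle inhibitor Cdkn1a (0.79, adjusted p = 0.267), which was higher. Pink1 ran from 812 to 926 cpm in WT and from 727 to 791 cpm in cmGch1 KO hearts. Its groups did not overlap, and 0.802% of all tested genes were lower without overlap. Under the 12 alternative settings, Pink1 ran from -0.21 to -0.12, Mxi1 from -0.26 to -0.16, Sesn1 from -0.36 to -0.18 and Cdkn1a from 0.51 to 0.88. Of 19 kinases and partners acting on FoxO, 12 were lower at a median of -0.03, with 0 past the FDR by edgeR and Mapk14, the p38 kinase, at -0.20 (adjusted p = 0.129 by edgeR).

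All 9 tested KLF15 targets were lower, with a median of -0.15. This list, like the others, was chosen with earlier results of these data known, and the count was not tested. Gpt, the alanine transaminase that Klf15 induces, passed the FDR with a log2 fold change of -0.31 (SE 0.07, adjusted p = 0.0417 by edgeR). It ran from 39.5 to 43.3 cpm in WT and from 28.7 to 36.7 cpm in cmGch1 KO hearts. The groups did not overlap, where 0.802% of all tested genes were lower without overlap. The call was kept only in the 2 fits without replicate 1 or 4 of cmGch1 KO. When any other single library was left out, the adjusted p-values lay between 0.0576 and 0.123 by edgeR. Slc27a1, a fatty acid transporter, was at -0.31 (adjusted p = 0.132 by edgeR). Without replicates 2 and 3 of cmGch1 KO, Gpt was at -0.24 (adjusted p = 0.223 by edgeR).

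The glucocorticoid receptor and its targets were lower in 10 of 13, with a median of -0.26 and 0 past the FDR by edgeR. Ddit4, an inhibitor of mTORC1, was at -0.80 (adjusted p = 0.345 by edgeR) and Errfi1, an inhibitor of EGF receptor signalling, at -0.48 (adjusted p = 0.376 by edgeR), both with an unadjusted p under 0.05. Without replicate 6 of WT Ddit4 was at -0.43, and without replicate 1 of WT Errfi1 was at -0.32. Other KLF genes were lower in 8 of 11 tested, with a median of -0.13 and 0 past the FDR by edgeR; Klf2, a flow-responsive endothelial factor, was at -0.60 (adjusted p = 0.185) and Klf12 at -0.48 (adjusted p = 0.287). Clock genes were lower in 9 of 14 tested, with a median of -0.28 and 0 past the FDR by edgeR. The PAR bZIP factors Hlf and Tef, outputs of the clock, were at -0.57 (adjusted p = 0.154 by edgeR) and -0.57 (adjusted p = 0.187 by edgeR). Under the 12 alternative settings, Hlf ran from -0.59 to -0.41, Tef from -0.60 to -0.36 and Klf2 from -0.61 to -0.48. Klf12 ran from -0.50 to -0.28 under the 11 settings that tested it.

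Myostatin, SMAD and BMP genes were lower in 11 of 16 tested, at a median of -0.08, with 0 past the FDR by edgeR; Fstl3, a secreted inhibitor of myostatin and activin, had a higher mean, at 0.70 (adjusted p = 0.240 by edgeR), but at 0.25 with sex-linked expression as a covariate, and it was under the filter on low counts in 6 of the 12 fits without 1 library. Of the 6 tested relatives of the FoxO factors, 4 were lower, at a median of -0.02, with 0 past the FDR or at an unadjusted p under 0.05 by edgeR.

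Markers of the cell types in the tissue were measured beside the members. The 8 cardiomyocyte markers summed to between 62721 and 66384 cpm in WT and between 56597 and 60624 cpm in cmGch1 KO hearts, without overlap, and 7 of 8 were lower with 0 past the FDR or at an unadjusted p under 0.05 by edgeR. Skeletal muscle markers summed to no more than 5.77 cpm in any library, with Myh4 at 0 in all 12, and adipocyte markers to no more than 3.50 cpm. Markers of these tissues, which also express atrophy ligases or Klf15, were thus near 0.

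Fibroblast markers were higher in 7 of 7, with sums of 627 to 847 cpm in WT and 697 to 846 cpm in cmGch1 KO hearts, and macrophage markers in 5 of 6, with 175 to 272 and 216 to 312 cpm. None of either passed the FDR by edgeR, and 2 and 4 of them were higher with an unadjusted p under 0.05, against 7.01% of all tested genes. Acta2, smooth muscle actin, was higher at 0.66 (SE 0.11, adjusted p = 0.00672 by edgeR), although 5 of the 7 smooth muscle and pericyte markers were lower. Nppa, the natriuretic peptide gene of the atria that strained ventricle also expresses, was higher at 1.53 (SE 0.30, adjusted p = 0.0240 by edgeR). The other tested atrial markers were at 0.11 (Myl7), 0.17 (Myl4) and -0.36 (Sln), none past the FDR, and the atrial list summed to between 74.7 and 549.6 cpm in WT and between 247 and 746 cpm in cmGch1 KO hearts. Nppa kept its call in 6 of the 12 fits without 1 library, with adjusted p-values up to 0.0703 by edgeR without replicates 2, 3 or 5 of WT or 2, 3 or 4 of cmGch1 KO, and Acta2 in all 12. Under the 12 other alternative settings (by edgeR, DESeq2 or limma), the adjusted p rose to 0.176 for Nppa and 0.0506 for Acta2. Both stayed higher in all of them. Endothelial markers were lower in 3 of 6 and erythroid markers in 5 of 5, with 0 of either past the FDR by edgeR. The part of these shifts in the levels of the members was not tested.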

How the data were processed

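RNA-seq of left ventricles from WT (n = 6) and cmGch1 KO mice (n = 6) was analysed, with genotypes and replicate numbers from the labels. The authors prepared stranded paired-end libraries and deposited 1 table of raw counts per Ensembl gene, made with HISAT2, Picard and featureCounts, and 1 table of normalized values on a log2 scale. Which annotation and strand setting they counted with is not given in the sources used here. The submitters' processing notes name HISAT2, SAMtools and GRCm38. Of 26921 identifiers, 26582 were found in GENCODE M21.

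Counts were tested with edgeR 4.0.16 in R 4.3.3: TMM, a cpm over 3 required in at least 6 libraries, quasi-likelihood test on genotype, Benjamini-Hochberg adjustment over 11225 genes and an FDR of 0.05. The fit was tested on simulated data. Single genes also had an exact permutation test across the 924 splits, two-sided. Correlations used log2 cpm with a prior count of 2 and 100000 resamples (SciPy 1.17.1, NumPy 2.4.6, Python 3.11.15). Alternatives used DESeq2 1.42.0, sva 3.50.0 and limma 3.58.1 (on the deposited log2 values). Depth lay between 19921398 and 37917806 counts, and the lowest count of a member in a library was 380.

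The members and gene lists were chosen with earlier results of these data known. Named were the members, Gch1, genes of the lists and markers past the FDR with up to 4 further genes of a described list by unadjusted p, and the 3 genes nearest to each of 4 members. Each library is 1 animal.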

Additional observations from a re-analysis of the deposited data

Results flagged for a closer look

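Of 86 groups of 6 libraries examined for the members, Gch1, the named list genes and the family shares, 5 had 1 library whose gap to its nearest neighbour exceeded, as a part of the group's range, Dixon's 95% critical value, and chance flags about 1 in 20 groups. In WT, Trim55 was 90.1 cpm in replicate 1, above 80.04 cpm in the next library, and the same library had the highest Trim55 share of the MuRF genes, at 12.5% against 10.7%. Replicate 4 of WT had the lowest Trim63 share, at 26.1% against 29.8%. Cdkn1a reached 94.5 cpm in 1 WT library, against 52.8 cpm in the next, and Egfl7 reached 87.1 cpm in 1 cmGch1 KO library, against 68.8 cpm.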

How the results depend on the processing

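The count of members called was 0 in 12 libraries and under every alternative, including each fit without 1 library, except for 2 with 1 surrogate variable. Over all tested genes, 50 were lower and 76 higher, against 155 and 218 by a DESeq2 Wald test, 331 and 305 with 1 surrogate variable, 24 and 40 with a covariate for sex-linked expression, and 18 and 16 without the 2 cmGch1 KO libraries with Xist. With library size alone 116 were higher. Leaving out 1 library in turn gave 28 to 96 lower and 44 to 111 higher, and moved either count by over 1.5 times without replicates 3, 4 or 5 of WT or 1, 2 or 3 of cmGch1 KO. With the replicate number as a block, 76 genes were lower and 112 higher, and the smallest adjusted p of a member was 0.0560 (Klf15, by edgeR). Deviations of same-numbered libraries correlated over 0.1 in 3 of 6 pairs, at 0.68, 0.40 and 0.51 for replicates 1, 5 and 6. In the same check, 3 of 6 libraries correlated best with their own number. Whether the numbers mark pairs or a shared batch was not tested. Trim54, Fbxo30 and Fbxo40 lie near 0 and changed sign: Trim54 and Fbxo30 were at 0.072 and 0.072 with library size alone, 0.040 and 0.082 with the sex-linked covariate, 0.0013 and 0.0021 without mitochondrial genes, and 0.040 and 0.092 without the libraries with Xist, where Fbxo40 was at 0.0029. With 1 library left out, Trim54 ran from -0.044 to 0.018 and Fbxo30 from -0.079 to 0.063. The other 7 members kept their sign under all of these. With the longest transcript as length, the mean shares over 12 libraries moved from 27.8% to 36.6% for Trim63, from 60.8% to 53.2% for Trim54 and from 6.78% to 6.18% for Foxo1. Centring within genotype left 12 of 22 pairs of members past the threshold. The causes of these shifts were not tested. Each member had at least 380 counts in every library, and coefficients of variation among WT libraries ran from 5.72% to 23.0%.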
